A study of Mus musculus with 4 samples.

Results

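The clock-controlled output genes of the liver are transcribed under the control of the circadian clock and pass its rhythm on to metabolism, and their transcripts were measured here in obese mice given galanin-like peptide (GALP, a hypothalamic neuropeptide) through the nose. The set held 9 genes. Dbp, Tef and Hlf encode the PAR bZIP activators, Nfil3 encodes the repressor that binds the same DNA element, Bhlhe40 and Bhlhe41 encode the repressors DEC1 and DEC2, Rora encodes a nuclear receptor that activates Bmal1, and Usp2 and Upp2 encode enzymes with rhythmic hepatic transcripts. Members were chosen by name, as every non-control probe whose gene name in the scanner files was 1 of these 9. The rule found 17 probes of 41174 on the array, for 9 of 26582 gene names.

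Male C57BL/6J mice, 8 weeks old when bought, were made obese (DIO, diet-induced obesity) by 14 weeks of a high-fat diet and weighed at least 40 g. They received 2 µL into the nose on each of 11 days, either porcine GALP (1-60) at 1 nmol in saline with 5% α-cyclodextrin, or saline as the control. Liver RNA was pooled from the 4 GALP mice that lost more weight, from the 4 that lost less, and from all 8 saline mice (the control). Against this control, each GALP pool was run on 2 dual-colour Agilent arrays with exchanged dyes, so that 4 arrays on 1 slide were read. No mouse was measured singly, so the spread between mice is not known. All groups shared the diet and the 12 h light and 12 h dark cycle, and the sources used here do not give the hour or the feeding state at which the livers were taken.

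Arrays 1 and 2 carried the pool with greater weight loss, with GALP in Cy5 and in Cy3 respectively. Arrays 3 and 4 carried that with less weight loss in the same order. Values are log2 ratios of the GALP pool over the control pool. Because both arrays of a pool held identical extracts, their mean stands for the pool, and an SD is that of n = 2 pools. The control was 1 pool on all arrays, so no SD or test contains its spread. By the rule of the methods, read strictly, a probe was called where the scanner software gave p under 0.01 and the same direction on all 4 arrays and the fold was over 1.5, or under 0.75, in both pools. In bulk liver RNA, fewer cells of a type and less RNA per cell cannot be told apart.

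In the clock of a mammalian cell, CLOCK and BMAL1 switch on genes with an E-box in their control regions, among them the Per and Cry genes, the Rev-erb genes and Dbp. DBP, TEF and HLF then bind D-box elements and NFIL3 competes for these, while ROR and REV-ERB proteins act in opposite directions on another element, the RORE. In liver the PAR bZIP proteins are known for driving the rhythm of drug and haem metabolism, through genes such as Por, Alas1 and several cytochromes P450.

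Promoters were looked up in a RefSeq table (GRCm38.p6), which held entries for 8 of the 9 members, with 10 promoters in all, and none for Bhlhe40. The 250 bases before each transcription start were searched on both strands for CACGTG (E-box), CACGTT (E′-box), TTANGTAA (D-box) and TAGGTCA (RORE). These motifs did not overlap each other in the promoters shown. The E-box was found in 3 of the 10 promoters, both of Tef and that of Bhlhe41, beside 6.02% of all 32851 promoters. The RORE was found in 1, that of Nfil3, beside 2.23% of all. The E′-box (3.85% of all) and the D-box (2.06% of all) were in none of the 10. The 4 promoters with a match are shown 5′ to 3′ with the motif in capitals. They lie at chr15:81802423-81802672 and chr15:81811164-81811413 on the plus strand for Tef, and on the minus strand at chr6:145865421-145865670 for Bhlhe41 and chr13:52981040-52981289 for Nfil3.
Tef, first promoter: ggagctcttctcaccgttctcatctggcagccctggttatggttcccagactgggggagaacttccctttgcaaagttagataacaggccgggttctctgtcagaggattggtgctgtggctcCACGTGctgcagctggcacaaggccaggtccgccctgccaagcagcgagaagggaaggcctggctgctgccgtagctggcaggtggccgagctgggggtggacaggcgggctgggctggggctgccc
Tef, second promoter: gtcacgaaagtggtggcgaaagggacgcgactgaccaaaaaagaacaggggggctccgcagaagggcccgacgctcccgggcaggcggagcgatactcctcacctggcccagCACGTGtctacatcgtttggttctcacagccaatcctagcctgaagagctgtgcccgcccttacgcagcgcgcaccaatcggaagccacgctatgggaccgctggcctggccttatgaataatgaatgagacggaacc
Bhlhe41: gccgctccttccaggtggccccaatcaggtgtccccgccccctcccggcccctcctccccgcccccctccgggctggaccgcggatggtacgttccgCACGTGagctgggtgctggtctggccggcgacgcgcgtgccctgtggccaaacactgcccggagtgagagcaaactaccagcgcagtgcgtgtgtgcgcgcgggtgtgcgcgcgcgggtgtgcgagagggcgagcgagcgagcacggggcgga
Nfil3: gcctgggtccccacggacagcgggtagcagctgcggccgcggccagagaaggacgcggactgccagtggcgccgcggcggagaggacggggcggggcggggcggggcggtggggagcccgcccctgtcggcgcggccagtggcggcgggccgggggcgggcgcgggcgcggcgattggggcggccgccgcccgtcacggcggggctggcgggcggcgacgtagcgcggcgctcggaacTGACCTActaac

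The E-box began 127 bases before the first start of Tef, 138 bases before the second and 153 bases before that of Bhlhe41. The RORE of Nfil3 began 12 bases before the start and is read on the opposite strand, so it appears as TGACCTA. The 2 promoters of Upp2 are shown next, since its mean ratio was the largest of the set, and they carried none of the 4 motifs. They lie at chr2:58567084-58567333 and chr2:58754934-58755183 on the plus strand. The first has a GC content of 73.2% and the second of 49.2%. Dbp, Hlf, Rora and Usp2 also held none in this window.
Upp2, first promoter: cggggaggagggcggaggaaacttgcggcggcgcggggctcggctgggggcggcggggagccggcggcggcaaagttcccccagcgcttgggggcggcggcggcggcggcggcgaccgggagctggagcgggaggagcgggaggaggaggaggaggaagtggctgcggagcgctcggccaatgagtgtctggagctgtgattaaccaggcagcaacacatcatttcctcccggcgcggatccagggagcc
Upp2, second promoter: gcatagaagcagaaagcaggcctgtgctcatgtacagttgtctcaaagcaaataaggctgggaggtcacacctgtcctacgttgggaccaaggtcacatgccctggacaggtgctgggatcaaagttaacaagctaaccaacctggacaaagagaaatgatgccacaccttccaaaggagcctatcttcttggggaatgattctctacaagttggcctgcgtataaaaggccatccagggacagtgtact

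Of the 8 output genes with signal, 5 were higher in the livers of GALP-treated mice on every array, at the brightest probe of each, and 2 were lower. Upp2 and Usp2 stood furthest from the control, the PAR bZIP activators Tef, Hlf and Dbp were above it by less, and the repressors Nfil3 and Bhlhe40 had ratios slightly below 0 and were not called. Of the 17 probes, 1 was called higher (Upp2), beside 0.0585% of the 41037 probes with a ratio on every array, and 0 were called lower, beside 0.132%. Of the 12 probes that were well above background in all 8 channels, 6 were higher on all 4 arrays, beside 11.8% of the 14453 such probes, and 4 were lower on all 4, beside 16.1%. The median over the 8 members with signal, at the brightest probe of each, was 0.26 on the log2 scale, at 0.25 with greater and 0.27 with less weight loss. The same median over all 16377 genes with signal was 0.01. Over all 12 member probes with signal it was 0.14, beside −0.02 over the 14453. Because the members were chosen with earlier results of these data known, these counts and medians are no independent evidence.

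**Figure D1:**
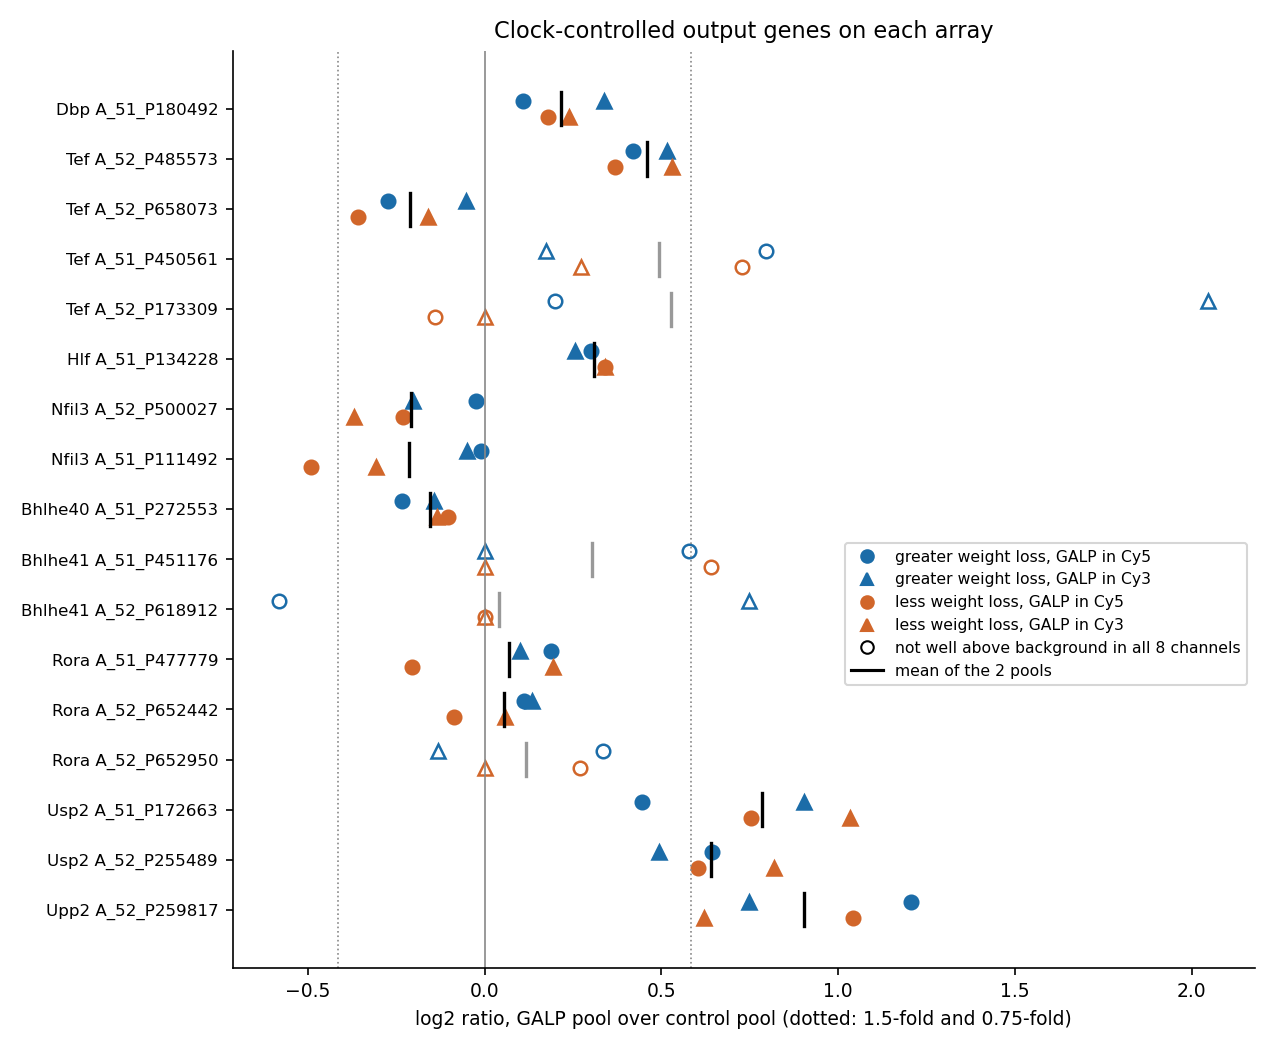
Log2 ratio of GALP over control (x axis) at each of the 17 probes (y axis), with 1 point per array, coloured by pool and shaped by the dye that carried GALP. Filled points are probes well above background in all 8 channels, bars are the mean of the 2 pools, and dotted lines mark 1.5-fold and 0.75-fold. Upp2 and both Usp2 probes lie to the right of 0 on every array, and Nfil3 and Bhlhe40 to its left.

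Upp2, the hepatic uridine phosphorylase that breaks uridine down to uracil, was the member called. Its probe (mm9 chr2:58632424-58632483) had log2 ratios of 1.21 and 0.75 on the arrays of the pool with greater weight loss and of 1.04 and 0.62 on those of the pool with less. On array 1 the processed signal was 1347 in the GALP channel and 584 in the control channel, and on array 4, the closest, it was 782 and 509. The GALP channel was the brighter on every array. The mean was 0.90 ± 0.10 (SD, n = 2), a fold of 1.87, and the pools stood at 1.97-fold and 1.78-fold. The software p-values ran from 2.3e-07 on array 1 to 0.0038 on array 4. The larger ratio came from the array with GALP in Cy5 in each pool, and the gaps between the arrays of a pool were 0.46 and 0.42. With normexp background correction and loess in place of the software ratios, the mean was 0.52, 0 of the 17 probes were called higher and the rule called 0.0219% of all probes higher.

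Usp2, a deubiquitinase whose known substrates include clock proteins, was higher at both of its probes without being called. The brighter probe (chr9:43900824-43900883) had log2 ratios of 0.44, 0.90, 0.75 and 1.03 on arrays 1 to 4. The mean was 0.78 ± 0.16 (SD, n = 2), or 1.72-fold. The control signal ran from 610 to 1064 and the GALP signal from 1141 to 1652, so the channels did not overlap over the arrays. The software p was 0.033 on array 1 and at most 0.00048 on the other 3, and array 1 alone kept the probe from being called. The dimmer probe (chr9:43903036-43903095), at control signals of 89.3 to 122, had ratios of 0.64, 0.49, 0.60 and 0.82. Its mean was 0.64 ± 0.10 (SD, n = 2), or 1.56-fold, and p was under 0.01 on 2 of the 4 arrays. Looser rules or fewer arrays called 2 of the 17 probes higher, Upp2 and the brighter of Usp2. These were p under 0.01 on at least 1 array of each pair (0.129% of all probes), no p-value (0.375%), GALP in Cy3 alone (0.341%) and the pool with less weight loss alone (0.234%). GALP in Cy5 alone (0.324%) and the pool with greater weight loss alone (0.292%) called Upp2 and no other member.

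**Figure D2:**
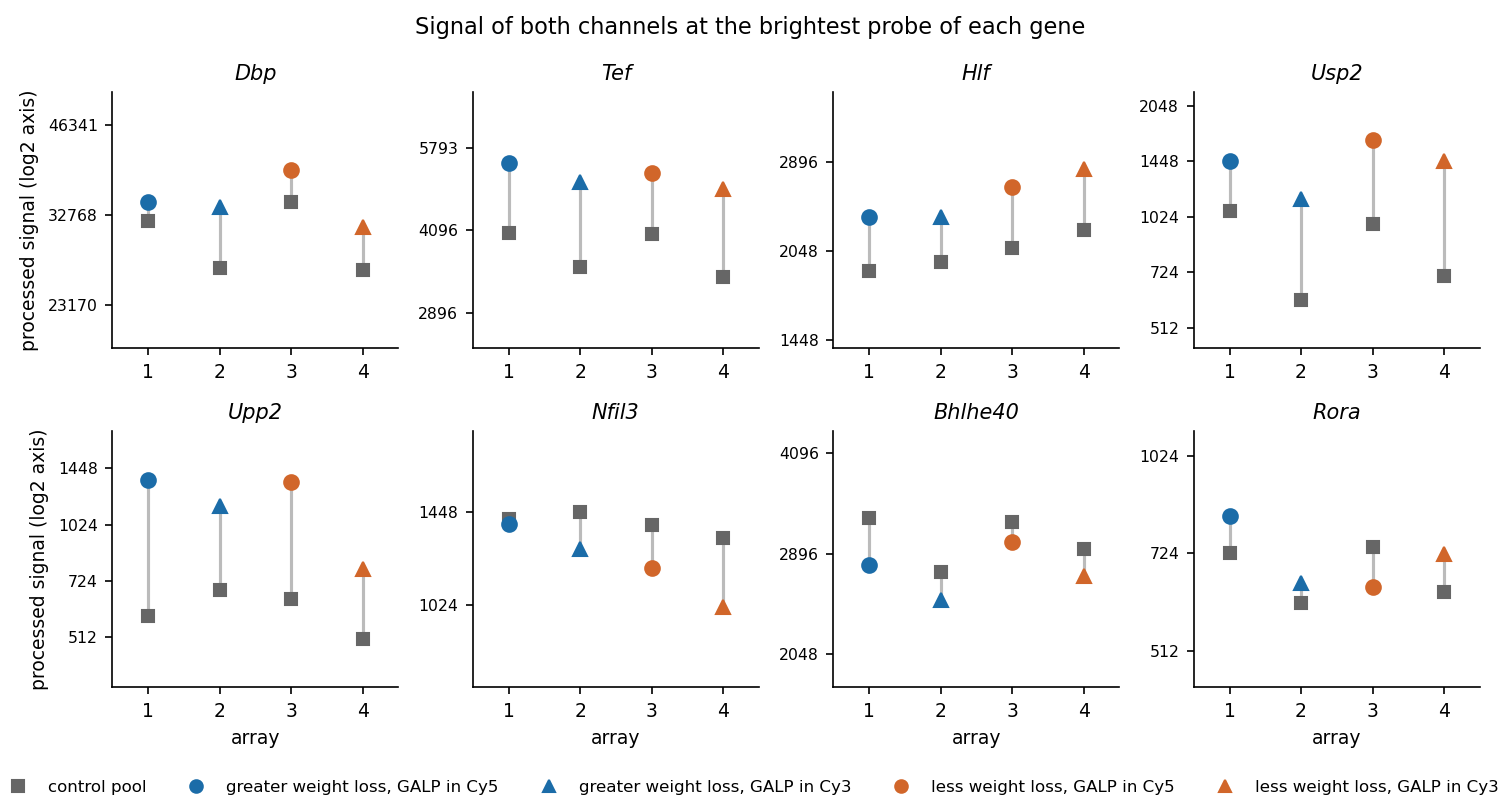
Processed signal (y axis, log2 scale, 1 panel per gene) of the control channel (squares) and the GALP channel (circles with GALP in Cy5, triangles with GALP in Cy3) on arrays 1 to 4 (x axis), at the brightest probe of the 8 genes with signal. The GALP channel is the brighter on all 4 arrays for Dbp, Tef, Hlf, Usp2 and Upp2 and the dimmer on all 4 for Nfil3 and Bhlhe40, and for Rora it changes side on array 3.

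Among the PAR bZIP activators, Tef had the largest ratio. Its brightest probe (chr15:81656928-81656987) had log2 ratios of 0.42, 0.52, 0.37 and 0.53. The mean was 0.46 ± 0.01 (SD, n = 2), or 1.38-fold, short of the fold limit, and the smallest software p was 0.011. Hlf (chr11:90199978-90200037) had ratios of 0.30, 0.26, 0.34 and 0.34, a mean of 0.31 ± 0.04 (SD, n = 2) and 1.24-fold. Dbp (chr7:52965265-52965324) was the most modest of these, at 0.11, 0.34, 0.18 and 0.24, a mean of 0.22 ± 0.01 (SD, n = 2) and 1.16-fold. Its probe was far above background, with signals of 26527 to 39010. All 3 genes were higher on 4 of 4 arrays, and no array gave any of them a software p under 0.01. For Dbp and Tef the SD between pools was smaller than the gaps between arrays of a pool, which reached 0.23 and 0.16.

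The other 3 probes of Tef did not all follow the brightest. One, named by an Ensembl transcript and lying upstream of the others (A_52_P658073, chr15:81646554-81646613), was lower on all 4 arrays, with log2 ratios of −0.27, −0.05, −0.36 and −0.16 and a mean of −0.21 ± 0.07 (SD, n = 2). Its signals, 86.2 to 150, were well above background in all 8 channels, and its smallest software p was 0.18. A further one (A_51_P450561, chr15:81654218-81654277) was higher on all 4 arrays, at 0.80, 0.17, 0.73 and 0.27. With less weight loss its control channel was not well above background on either array and its GALP channel was on 1 of 2. The fold there was 1.42 as measured near background, which is not a lower limit. On array 4 neither channel was well above background and the software p was 0.67. The last (A_52_P173309), whose place in the files spans 2106 bases (chr15:81651816-81653921), was well above background on array 2 alone, where the GALP signal was 102 and the control signal 24.6. On the other arrays its signals were at most 12.4. Which Tef transcript each probe reads was not tested, since no genome of this build was used here.

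Of the repressors, Nfil3 and Bhlhe40 had small negative ratios that passed neither the rule nor limma. Nfil3, which represses through the D-box, had log2 ratios of −0.02, −0.20, −0.23 and −0.37 at its brighter probe (chr13:53062585-53062644), with a mean of −0.21 ± 0.13 (SD, n = 2) and 0.87-fold. At the other probe (chr13:53062869-53062928) they were −0.01, −0.05, −0.49 and −0.31, with a mean of −0.21 ± 0.26 (SD, n = 2). Both probes were lower on 4 of 4 arrays, but at the second the pool with greater weight loss stood at −0.03. Bhlhe40 (chr6:108616309-108616368), a repressor of E-box genes, had ratios of −0.23, −0.14, −0.10 and −0.14, a mean of −0.15 ± 0.05 (SD, n = 2) and 0.90-fold. No software p was under 0.01 for either gene, and the unadjusted limma p was 0.16 and 0.33 for the probes of Nfil3 and 0.064 for Bhlhe40. Bhlhe41 was not well above background in any channel at either of its 2 probes, with signals of 6.02 to 14.2, so its ratios, drawn as open points in the plot by probe, have no order.

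Rora had no settled direction. Its 2 probes with signal, which are neighbours (chr9:69226711-69226770 and chr9:69226611-69226670), had log2 ratios of 0.19, 0.10, −0.20 and 0.19 and of 0.11, 0.13, −0.09 and 0.06. Both were higher on 3 arrays and lower on array 3. The means were 0.07 ± 0.11 and 0.05 ± 0.10 (SD, n = 2), within the spread of the pools. The third probe (chr9:69233105-69233164) was not well above background in any channel.

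In the limma test of the 2 pools against 0, 6 of the 12 member probes with signal had an unadjusted p under 0.05, and all 6 were higher in GALP. The 6 were the probes of Dbp, Hlf and Upp2, both of Usp2 and the brightest of Tef, with p from 0.0031 for Tef to 0.031 for the brighter Usp2 probe. The share was 7.89% higher and 12.6% lower over all 14453 such probes. The members were chosen with earlier results of these data known, and both Usp2 probes read 1 gene. The count beside the share is therefore no independent evidence. After Benjamini-Hochberg adjustment over 41037 probes, limma called 0 of the 17 probes and 0 of all (0%), and the smallest adjusted p among the members was 0.374. The test had 1 residual degree of freedom, and sign flips of 2 pools cannot give a two-sided p below 0.5. With normexp and loess, limma called 3 of the 17 probes, those of Tef (adjusted p = 0.037), Upp2 (adjusted p = 0.037) and the brighter of Usp2 (adjusted p = 0.044), beside 0.231% of all probes. Over the 10 alternative limma settings, the smallest adjusted p of a member lay between 0.037 and 0.723. With the pool as a random block over the 4 arrays it was 0.0505, and 0.258% of all probes were called.

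The difference between the GALP pools, less minus greater weight loss, was −0.02 for Dbp, −0.02 for Tef, 0.06 for Hlf and 0.07 for Bhlhe40. It was −0.15 for Upp2 and 0.22 for the brighter Usp2 probe, each under the widest gap between dye-swapped arrays of that probe, 0.46 for both genes. It was −0.19 and −0.37 for the probes of Nfil3, where it exceeded the gaps between arrays, which were at most 0.18 for both. Over the 14453 probes with signal the median size of this difference was 0.10, and the 95th percentile was 0.42. With 1 pool per weight loss group the difference has no test. No member was higher on both arrays of one pool and lower on both of the other. The pools share the control pool, so they do not vary independently of each other.

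**Figure D3:**
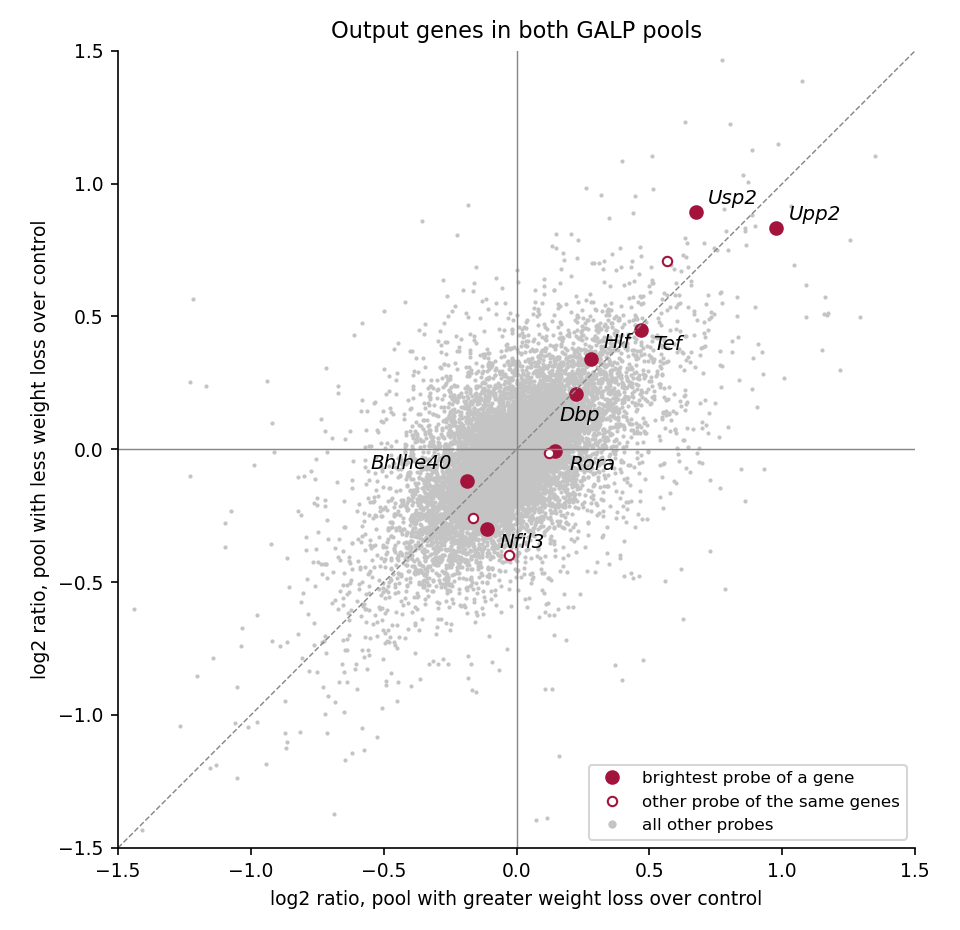
Log2 ratio in the pool with greater weight loss (x axis) against the pool with less weight loss (y axis), with grey points for the probes well above background in all 8 channels and red points for the 12 such probes of the output genes. Filled red points are the brightest probe of a gene, the dashed line marks equal ratios, and 64 of the 14453 probes lie outside the axes. Upp2 and Usp2 stand at the upper right, with Tef, Hlf and Dbp close to the dashed line below them.

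The core clock genes gave a background to these values. Of the 11 genes reported from the 2 lists, 0 were called, beside 0.19% of the 41037 probes called in either direction. With so small a share, 0 of 11 does not set these genes apart. In the list of the Per and Rev-erb phase, whose genes peak near Dbp, 6 of 7 genes had signal and the median was 0.26. On all 4 arrays 4 of them were higher, beside 1620 of the 16377 genes with signal. One of the 4, Ciart, was well above background in only 3 GALP and 2 control channels. The log2 ratios were 0.23 ± 0.11 for Per1, 0.29 ± 0.01 for Per2, 0.30 ± 0.03 for Cry2, 0.16 ± 0.01 for Nr1d2 and 0.51 ± 0.21 for Ciart (SD, n = 2). Per1 was lower on array 3, at −0.19, and higher on the other arrays. Per2 had ratios of 0.47 and 0.50 with GALP in Cy5 but 0.11 and 0.07 with GALP in Cy3, a gap that its SD does not contain. Nr1d1, which encodes REV-ERBα, was at −0.15 with greater and −0.92 with less weight loss. The first of these is the mean of 0.10 on array 1 and −0.41 on array 2. Per3 was at background. Of 4 genes of the Bmal1 phase, 3 had signal and 2 were lower on all 4 arrays, beside 1748 of the 16377 genes. Arntl, which encodes BMAL1, was at −0.43 ± 0.36 and Clock at −0.33 ± 0.12 (SD, n = 2). Cry1, whose probe was well above background in 4 of 8 channels, had ratios of 1.44 on array 2 and 0.87 on array 4, both with GALP in Cy3. The software set its ratio to 0 on arrays 1 and 3, with GALP in Cy5, so no mean is given. Npas2 was at background. Of 5 clock kinases and ligases, 0 were called, beside the same 0.19% of probes, and the median was −0.02.

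Of 8 listed targets of the PAR bZIP proteins in liver, all had signal, and 7 were higher on all 4 arrays at the brightest probe, beside 1620 of the 16377 genes with signal. The median was 0.58, beside 0.01 over those genes. One was called higher, beside 0.0585% of the 41037 probes. It was Por, which encodes the reductase that hands electrons to microsomal cytochromes P450. Its log2 ratios were 0.88, 0.89, 0.89 and 0.87, and its mean was 0.88 ± 0.005 (SD, n = 2) or 1.84-fold. None of the other 7 was called, and their means at the brightest probe ran from 0.07 to 0.66. A second probe of Cyp2b10, a cytochrome P450 of drug metabolism, had a larger mean of 1.02 ± 0.33 (SD, n = 2) and was not called either. The list was written with earlier results of these data known, so its direction is no independent evidence. Cyp2a4 and Cyp2a5 are close paralogs whose probes may share signal. In the 250-base window, 0 of the 8 promoters found for 7 of these genes held the D-box.

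**Figure D4:**
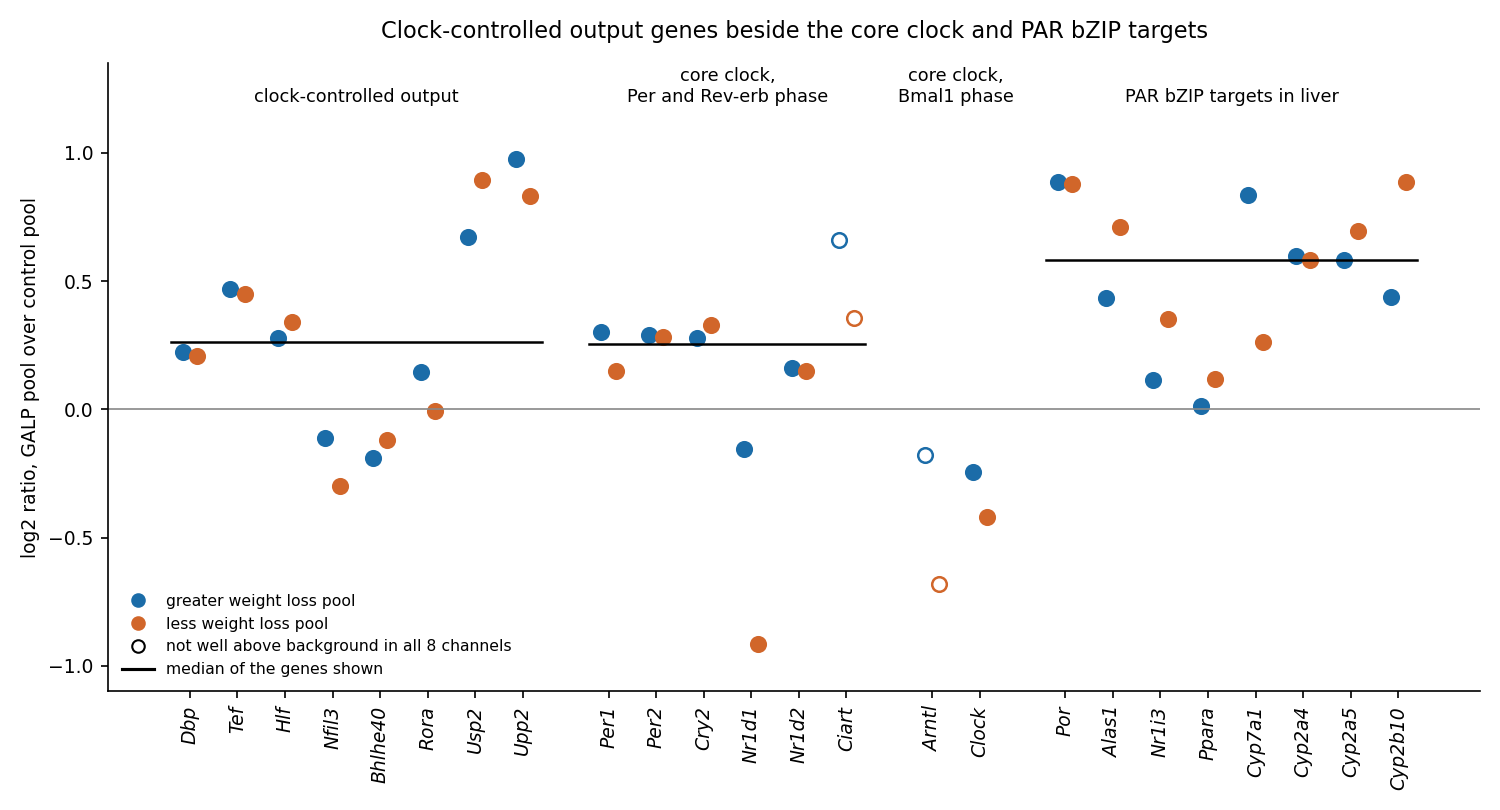
Log2 ratio over control (y axis) in the pool with greater weight loss (blue) and the pool with less (orange) for genes with signal in 4 lists (x axis), at the brightest probe of each. Lines are medians of the genes shown, at 0.26 for the output genes, 0.26 for the Per and Rev-erb phase and 0.58 for the PAR bZIP targets. Open points are probes not well above background in all 8 channels. Cry1 is not drawn, and the Bmal1 phase has no line.

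Of 12 other liver genes with a daily rhythm, 11 had signal and the median was 0.06. None was called higher and 2 were called lower, beside 0.0585% and 0.132% of the 41037 probes. The 2 were Elovl3, a fatty acid elongase, at −1.20 ± 0.44, and Insig2, a regulator of sterol synthesis, at −0.76 ± 0.17 at its second probe (SD, n = 2). The brightest probe of Insig2 was at −0.58 ± 0.10 (SD, n = 2) and was not called. Among 9 other genes of uridine breakdown, uridine salvage and deubiquitination, 7 had signal and a ratio on every array, with a median of −0.02. None was called, beside 0.19% of the 41037 probes called in either direction. Upb1 had signal too, but no spot of it was kept on array 4. Upp1, the other uridine phosphorylase, was at background in every channel. For likeness of pattern, the 4 log2 ratios of Dbp were compared with those of 10671 genes. The nearest were Tm4sf4, Hnrnpm, Stk35, Lamc1 and Ttc38, at Euclidean distances of 0.049 to 0.086, and none of them is in the clock lists. The ratios of Dbp, 0.11 to 0.34, were of the size of the median gap between the arrays of a pool. That gap was 0.18 with greater and 0.22 with less weight loss, so a small distance does not show a shared pattern.

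Over the series, 24 probes (0.0585% of 41037) were called higher and 54 (0.132%) lower. Of the spots, 40.5% to 46.7% per channel were well above background and 0 were saturated. Of 7 hepatocyte markers 6 were on the array by name and had signal wherever a spot was kept. The 5 with complete values had summed signals of 135451 to 183388 in single channels and a median ratio of 0.01. All 6 Kupffer cell markers had signal and 1, Marco, was called higher, with summed signals of 23107 to 28264 in GALP and 20536 to 22959 in control channels. The median of these 6 was 0.01 with greater and 0.14 with less weight loss. Marco and others, 3 in all, were higher on all 4 arrays, and Clec4f, Vsig4 and Timd4 had means of −0.001, −0.07 and −0.16. All 5 endothelial markers had signal and 1, Lyve1, was called higher, at sums of 21092 to 26516 in GALP and 21720 to 30353 in control channels. The median of these 5 was 0.07 with greater and 0.01 with less weight loss. Kdr was lower on all 4 arrays, with a mean of −0.12. Clec4g, Pecam1 and Stab2 had means of −0.12, 0.08 and 0.13. The stellate cell, bile duct, lymphocyte, gut and adipose lists had 0 genes called, and Epcam, Cd3g, Cd79a, Gkn1, Vil1, Lep and Retn were at background. The stellate cell, bile duct and gut lists had medians of −0.19 to 0.20 in single pools, but the gut gene Tff2 was at −3.79 with greater and 0.68 with less weight loss. The lymphocyte median was −0.13 and −0.71 in the same order, and the adipose median 0.74 and −0.26. Summed adipose signals of the 3 genes with signal were 14646 to 17720 in GALP and 7809 to 12354 in control channels, with no overlap. Of these genes only Cidec was higher on all 4 arrays, at 0.75 ± 0.01 (SD, n = 2). Adipoq was at 0.38 with greater and −0.26 with less weight loss. Plin1, well above background in 1 channel, was at 0.76 and −0.26. The median of 5 pancreas markers was −3.46 in arrays 1 and 2 and 0.79 in arrays 3 and 4, and that of 5 skeletal muscle markers was 0.34 and −2.20. The part of all these lists in the ratios of the output genes was not tested.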

How the data were processed

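Liver RNA of 2 GALP pools and 1 control pool was read on 4 dual-colour arrays of 60-base probes, with 43379 spots each. The authors' scanner software was Feature Extraction, version 12.0.3.1 per the file headers and 11.0.1.1 per the submitters' processing notes. It corrected for background, applied LOWESS to the dyes, and wrote per spot the deposited processed intensity of both channels, a log10 ratio (Cy5 over Cy3) and a p-value for that ratio, which concerns the extracts on 1 array. The software set the log10 ratio to 0 in 29.6% to 35.3% of spots. In the deposited value matrix, used as an alternative, the log10 ratios already ran as GALP over control and differed from the scanner files mainly at those spots. Its column medians were −0.040, −0.013, 0.0049 and 0.0046.

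Ratios were put on the log2 scale with GALP as the numerator. Outlier spots (232 to 319 per array) were left out, spots of a probe were averaged, then the arrays of a pool. The labels give the control channel a weight loss group, whereas the methods describe 1 control pool, which counted here as 1 sample. The labels give 2 weeks of acclimatization. The number of arrays limits the precision.

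Limma 3.58.1 in R 4.3.3 (lmFit, eBayes) tested the 2 pool ratios against 0 with Benjamini-Hochberg adjustment over 41037 probes. The rule of the methods (p under 0.01, fold over 1.5 or under 0.75) was read strictly, on all 4 arrays. For genes with several probes, lists used the probe with the highest mean signal. Medians left out genes at background or without a ratio on every array. No lower limit of a fold is given for dim probes. Both procedures were tested on simulated data. Named are all members, the core clock genes (1 of the list is not reported here), list genes with a called probe and the 5 genes nearest to Dbp. The markers Marco and Lyve1 fall under the same rule. Upp1, Upb1, Alas1, Cyp2a4, Cyp2a5, Cyp2b10, Avpr1a, Tff2, Cidec, Adipoq, Plin1, Clec4f, Vsig4, Timd4, Kdr, Clec4g, Pecam1, Stab2 and the markers at background lie outside it. They were named after their values were seen. The members, lists and tests were chosen with earlier results of these data known.

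Alternatives were normexp (offset 50) with loess, centring, the value matrix, outlier spots kept, each dye orientation, each pool left out, other p rules, the mean over probes and, for limma, an intensity trend, the pool as a random block, no moderation and probes with signal only. Those for the difference between the pools were added after its values were seen. Probe positions are on mm9 (NCBI37) as the files give them, with no annotation of that build used to place them in exons, and 16 of the 17 member probes have an accession that RefSeq lists. Python 3.11.15, numpy 2.4.6, pandas 2.3.3, matplotlib 3.10.9, statmod 1.5.0 and the R package data.table, version 1.17.8, were used. The metabolome was not analysed here.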

Additional observations from a re-analysis of the deposited data

How the results depend on the processing

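Dbp, Tef, Hlf, Nfil3 and Bhlhe40 kept their direction and stayed uncalled by the rule of the methods under all 9 alternatives. Upp2 and Usp2 kept their direction under the same 9. Centring, the value matrix and kept outlier spots left the ratios of the members with signal as they were, so they were no check on these. The mean over probes likewise changed nothing for Dbp, Hlf, Bhlhe40 and Upp2, which have a single probe each. Upp2 was called under 8, but these include the settings that left its ratio at 0.90, and the others used part of the same software ratios. It was not called with normexp and loess (0.52), where the offset of 50 is added to both channels. Usp2, uncalled in the report, was called with GALP in Cy3 alone (0.97) and without the pool with greater weight loss (0.89). Rora changed sign with GALP in Cy5 alone (−0.0078) and without the pool with greater weight loss (−0.0056), and stood at 0.145 without the pool with less. The median over the members was 0.233 with GALP in Cy5 alone and 0.293 with GALP in Cy3 alone, and 0.251 to 0.274 with a pool left out.

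Of the 17 probes, the count called higher was 0 with normexp and loess, 2 with GALP in Cy3 alone, 2 with p under 0.01 on at least 1 array of each pair and 2 without the p-value, and 1 to 2 with a pool left out. The second probe was that of Usp2, and 0 were called lower throughout. Among the clock-linked lists, 1 gene was called higher and 2 lower. The count higher was 4 with GALP in Cy5 alone (0.324% of all probes called higher) and 3 with GALP in Cy3 alone (0.341%). It was 3 with p on at least 1 array of each pair (0.129%) and 3 without the p-value (0.375%). Without the pool with greater weight loss it was 4 (0.234%), and without that with less it was 4 (0.292%). Under the strict rule the share was 0.0585%, so the share over all probes rose too. The count lower was 1 with normexp and loess, 3 without the pool with greater weight loss (with Nr1d1) and 3 without the p-value (with Avpr1a). No share over all probes is given for these lower counts. Limma called 3 of the 17 probes with normexp and loess and 0 under the other 9 settings. The median difference between the pools over the members was −0.017, and it was −0.055 with normexp and loess, 0.011 with GALP in Cy3 alone and −0.080 with the mean over probes. The causes were not tested.

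No paired analysis was possible because the numbers 1 and 2 that both GALP groups carry mark the dye orientation of arrays of 1 extract, not animals, and each fit is against 0. Limma without 1 pool was not run, since it leaves no residual degree of freedom. Dim probes limit the set: 5 of the 17 were not well above background in all 8 channels.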
